A study of Homo sapiens with 6 samples.

Results

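The genes described here make and use small RNAs in human cells: DROSHA, DGCR8, XPO5, DICER1, TARBP2, AGO1, AGO2, AGO3, AGO4 and TNRC6A. They were chosen by name for their part in microRNA and hairpin processing, 10 of the 33367 genes to which the transcript tables could be summed, and all 10 passed the filter on low counts. The libraries come from K562, an established human erythroleukaemia line, grown under puromycin at 2 µg/ml to keep clones with an inducible short hairpin RNA (shRNA). The groups were clones c2 and c1 with a CDAN1 shRNA and doxycycline at 1 µg/ml for 4 days (1 library each), the same clones without doxycycline (1 each), and a non-targeting (NT) shRNA clone with doxycycline (1) and without it (1). CDAN1, the target of the hairpin, encodes codanin, a protein of histone supply whose inherited loss causes a congenital anaemia. Groups follow the sample titles, and the names of the deposited tables give clone c2 another number. Each clone was 1 line and each library 1 culture. Every p-value below therefore speaks for these 6 libraries alone, and a difference between clones cannot be told apart from a difference between constructs.

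In the textbook pathway the nuclear Microprocessor, DROSHA with its RNA-binding partner DGCR8, cuts a hairpin out of a primary microRNA transcript. XPO5 (exportin-5) carries the hairpin to the cytoplasm, DICER1 with TARBP2 cuts off its loop, and an Argonaute protein keeps 1 strand and uses it to find target mRNAs. TNRC6A, a GW182 protein, links Argonaute to the enzymes that shorten poly(A) tails. A simple shRNA enters this pathway at exportin-5, while one built into a microRNA backbone also needs the Microprocessor. Which form was used here is not given in the sources used here, and small RNAs were not measured, so all values below are mRNA levels of the machinery.

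The libraries held 28318555 to 32352246 estimated reads. All 10 K562 markers (among them GATA1, KLF1 and the embryonic and fetal globins) stood above 1 TPM (a level corrected for transcript length and scaled to the library) in every library, with a summed 24139 to 32840 TPM. Of 10 markers of other cell types, 6 stayed under 1 TPM in all libraries, MS4A1 and ELANE were listed at 0, and EPCAM and PECAM1 exceeded 1 TPM throughout, for a summed 34.6 to 54.8 TPM. CDAN1 stood in the library with doxycycline at 53.7% of the level without it in c2, at 45.8% in c1 and at 112% in NT. These ratios are taken within clones. The clones also differed in CDAN1 without doxycycline, with c1 lowest, as given below for the knockdown comparison.

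The genes of DGCR8 and DICER1 themselves hold microRNAs. The 2 hairpins in exon 2 of the DGCR8 mRNA, which the Microprocessor is known to cut in place, give rise to miR-3618 and miR-1306, and an intron of DICER1 holds miR-3173. The mature sequences from RefSeq (GRCh38.p14) are shown because they mark where these host genes hold hairpins, with the seed, bases 2 to 8, in capitals. Those of DGCR8 lie in its mRNA, and that of DICER1 lies in an intron and not in the spliced mRNA. The 5 seeds all differ.
miR-3618 (chr22:20085797-20085818, plus strand, untranslated part of DGCR8 exon 2): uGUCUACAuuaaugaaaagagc
miR-1306-5p (chr22:20086072-20086093, plus strand, coding part of DGCR8 exon 2): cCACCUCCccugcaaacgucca
miR-1306-3p (chr22:20086112-20086129, plus strand, coding part of DGCR8 exon 2): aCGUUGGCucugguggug
miR-3173-5p (chr14:95137961-95137982, minus strand, DICER1 intron): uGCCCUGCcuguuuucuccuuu
miR-3173-3p (chr14:95137923-95137944, minus strand, DICER1 intron): aAAGGAGGaaauaggcaggcca

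Levels per length ran over more than 10-fold between members. DGCR8 led with 85.7 ± 3.49 TPM, followed by XPO5 with 85.4 ± 3.97, TARBP2 with 53.0 ± 3.25 and DROSHA with 49.7 ± 9.27 TPM (mean ± SD, n = 6 libraries, here and in the next sentence). TNRC6A followed with 18.9 ± 1.51 TPM, then AGO2 with 16.5 ± 1.84, AGO3 with 13.9 ± 1.85, AGO1 with 13.7 ± 1.08, AGO4 with 8.98 ± 2.21 and DICER1 with 6.23 ± 0.866 TPM. Between neighbours in this order the ranges over the 6 libraries were apart only for XPO5 over TARBP2 and for DROSHA over TNRC6A. The Microprocessor, exportin and TARBP2 mRNAs thus lay above all 4 Argonautes, TNRC6A and DICER1 in every library.

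**Figure D1:**
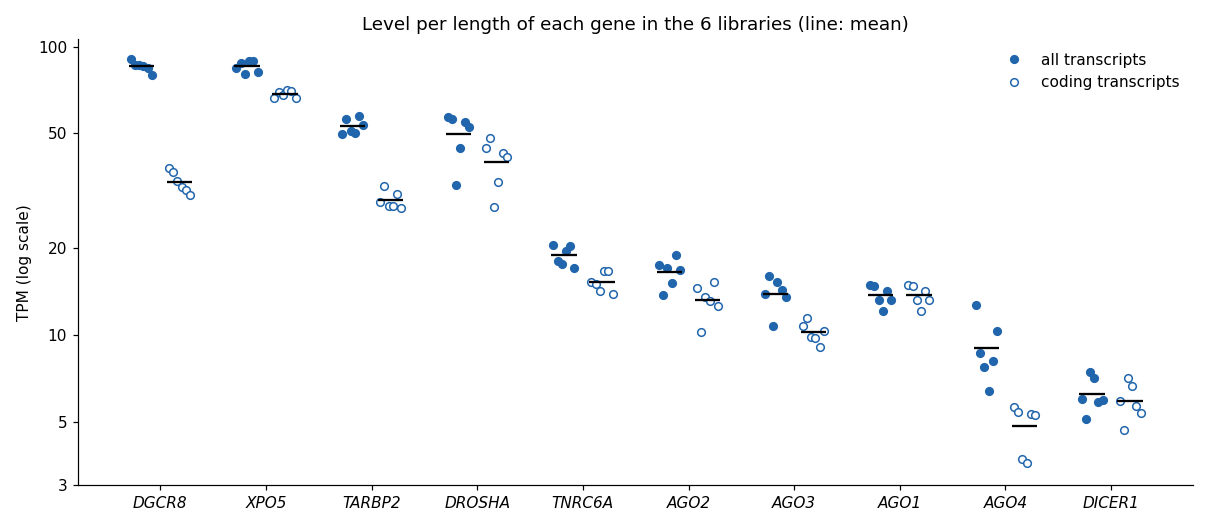
TPM on a log axis for each gene, 1 point per library (filled for all transcripts of the gene, open for coding transcripts alone), with the mean over 6 libraries as a line. The 4 genes at the left lie above the 6 at the right, and DGCR8 drops from a mean of 85.7 to 33.9 TPM when only coding transcripts are counted.

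That order depended on which transcripts were counted. Transcripts annotated with a retained intron took 42.7% to 47.2% of the DGCR8 reads, and coding transcripts the other 52.8% to 57.3%. TARBP2 had 58.9% to 66.5% of its reads on coding transcripts, with the rest on retained-intron and decay-prone forms. For the other 8 members coding transcripts carried at least 77.8% of the reads in every library. On coding TPM alone XPO5 led with 68.6 ± 1.99 TPM, above DROSHA with 39.7 ± 7.51, DGCR8 with 33.9 ± 2.88 and TARBP2 with 29.4 ± 2.04 TPM (SD, n = 6), while AGO4 was last with 4.81 ± 0.914 TPM. DGCR8 overlaps TRMT2A on the other strand (4457.5 to 5662.9 estimated reads) and XPO5 overlaps POLR1C (1601.0 to 2144.0). The strand of the libraries is not given in the sources used here, so the share of reads that belongs to the partner was not tested.

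DROSHA, the nuclease of the Microprocessor (ENSG00000113360, GRCh38 chromosome 5, 31400497 to 31532196, minus strand), stood at 149 CPM with and 157 CPM without doxycycline in c2, at 97.9 and 119 in c1, and at 145 and 145 in NT. CPM are estimated reads relative to the library total, scaled between libraries by TMM. Both c1 libraries lay below all 4 others. As everywhere in these bulk cultures, fewer cells expressing a gene and less RNA per cell cannot be told apart. DROSHA fell by 0.42 ± 0.08 on the log2 scale in c1 against NT (SE, 2 libraries a clone, adjusted p = 0.00621, edgeR quasi-likelihood test) and was 0.50 ± 0.08 higher in c2 against c1 (adjusted p = 0.00279, edgeR). The call in c1 against NT ended on log2(TPM + 0.5) (limma, −0.48, adjusted p = 0.0592). In c2 against NT it stood at 0.08 ± 0.08 (adjusted p = 0.512, edgeR). Its 2 leading coding transcripts, DROSHA-220 and DROSHA-212, were both lowest in c1, with 1912.3 and 948.6 estimated reads in c1 with doxycycline, 2155.9 and 1020.0 in c1 without it, and at least 2329.3 and 1168.2 in the other 4 libraries. Between doxycycline states the 2 transcripts differed in opposite directions in c2 and in NT.

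DGCR8, which binds the hairpin and positions DROSHA (ENSG00000128191, chromosome 22, 20080232 to 20111877, plus strand), was far steadier. It stood at 260 CPM with and 239 without doxycycline in c2, at 246 and 239 in c1, and at 232 and 231 in NT. The CDAN1 shRNA libraries were all above both NT libraries, by 0.11 ± 0.05 in c2 against NT (adjusted p = 0.193, edgeR) and 0.07 ± 0.05 in c1 against NT (adjusted p = 0.379, edgeR), and neither passed the test. For c1, where DROSHA was lower, the 95% interval of the DGCR8 difference from NT was −0.06 to 0.19.

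XPO5, the export receptor (ENSG00000124571, chromosome 6, 43522330 to 43576075, minus strand), varied least of the 10. It stood at 315 CPM with and 326 without doxycycline in c2, at 331 and 347 in c1, and at 340 and 328 in NT. The SD of its log2 CPM over the 6 libraries was 0.049, against a median of 0.208 over the 14075 genes tested and 0.064 for DGCR8. By mean CPM, XPO5 stood above 96.8% of the genes tested and DGCR8 above 94.8%. Their SDs were not set against those of genes of like level. No clone comparison of XPO5 passed the test, with values between −0.08 and 0.02.

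DICER1, the cytoplasmic nuclease (ENSG00000100697, chromosome 14, 95086228 to 95158010, minus strand), separated the 3 clones. It stood at 41.7 CPM with and 36.5 without doxycycline in c2, at 57.8 and 56.7 in c1, and at 47.5 and 46.5 in NT, so that c2 was lowest, NT in between and c1 highest with no overlap. DICER1 fell by 0.55 ± 0.08 in c2 against c1 (SE, adjusted p = 0.00235, edgeR), a call that ended on log2(TPM + 0.5) (limma, −0.36, adjusted p = 0.161). It was 0.28 ± 0.08 higher in c1 against NT (adjusted p = 0.0348, edgeR), and stood at −0.27 ± 0.08 in c2 against NT (adjusted p = 0.0522, edgeR), short of the threshold. The call in c1 against NT held under 6 of 15 alternative settings. It ended without any 1 of the c1 and NT libraries (edgeR, adjusted p = 0.0717 with the doxycycline library of c1 left out, 0.173 with the other c1 library, 0.174 with the doxycycline library of NT and 0.0865 with the other NT library), with DESeq2 (adjusted p = 0.0703), and with 4 other settings. The reads of DICER1 were divided among 3 coding transcripts of nearly the same length, 10220 to 10331 bases, whose estimates shifted between libraries. The transcript of 10220 bases, for instance, had 1183.0 estimated reads in c1 and 0 in NT without doxycycline, where the gene as a whole stood at 56.7 and 46.5 CPM.

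TARBP2, the double-stranded RNA-binding partner of Dicer (ENSG00000139546, chromosome 12, 53500921 to 53506431, plus strand), stood at 46.5 CPM with and 48.7 without doxycycline in c2, at 47.6 and 44.4 in c1, and at 51.1 and 48.8 in NT. Its 6 values lay within 1.15-fold of each other, and no clone comparison passed the test (−0.12 to 0.05).

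**Figure D2:**
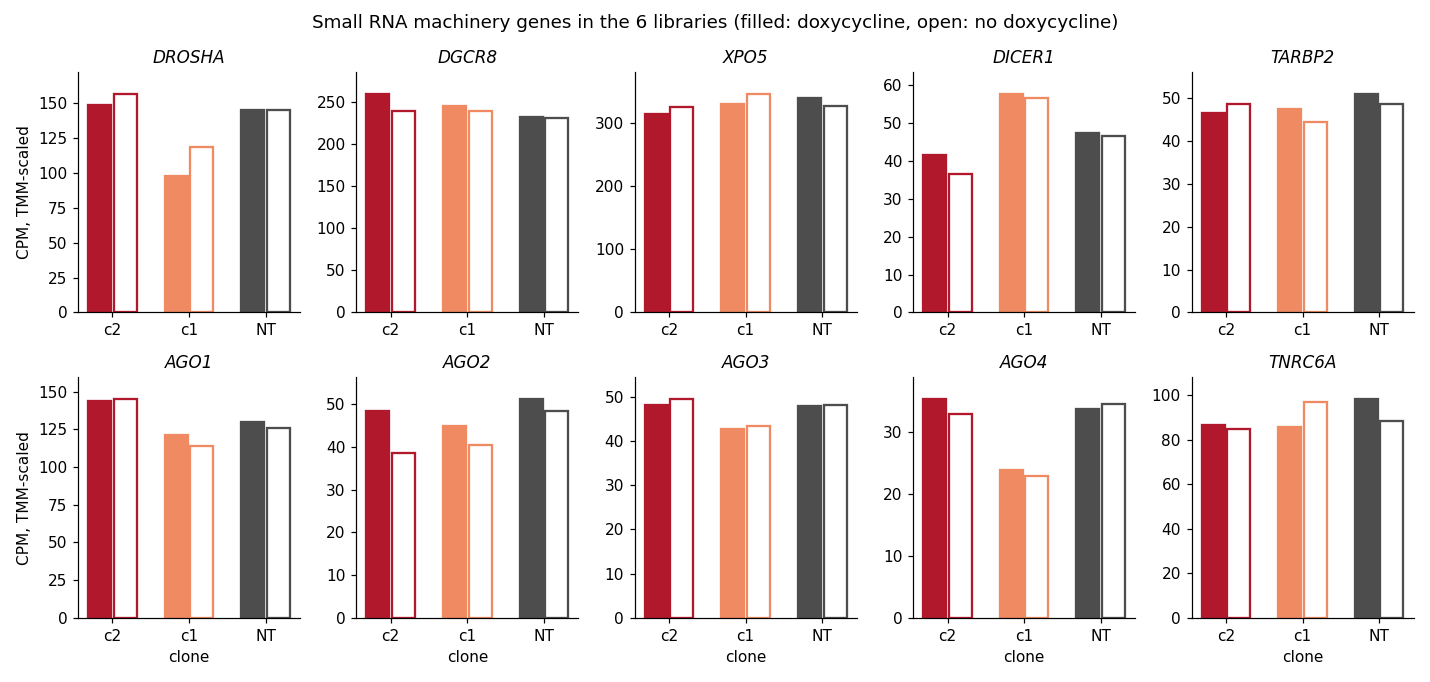
TMM-scaled CPM of the 10 genes in the 6 libraries, with filled bars for doxycycline and open bars for no doxycycline, each clone in its colour and axes from 0. DROSHA and AGO4 are lowest in both c1 libraries, and DICER1 is lowest in c2 and highest in c1.

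The Argonautes hold the guide strand. AGO4, AGO1 and AGO3 lie side by side in that order on the plus strand of chromosome 1 (35808172 to 35857890, 35869808 to 35930528 and 35930718 to 36072500), and AGO2, the human Argonaute best known for cutting a fully paired target, lies on chromosome 8. On coding TPM, AGO1 made up 31.5% to 35.4% of the 4 Argonaute mRNAs, AGO2 24.5% to 34.8%, AGO3 20.6% to 27.2% and AGO4 9.19% to 12.9%. The low end for AGO2 was c2 without doxycycline, and the low end for AGO4 was c1, with 9.19% and 9.29% in its libraries against 12.1% or more in the others. The AGO2 share depends on how its reads were divided among transcripts. Decay-prone forms took 22.2% of AGO2 reads in c2 without doxycycline and 0% in c1 without it. The whole gene stood at 38.5 and 40.4 CPM in these libraries.

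AGO4 stood at 35.3 CPM with and 32.9 without doxycycline in c2, at 23.9 and 22.9 in c1, and at 33.7 and 34.6 in NT. The c1 libraries lay below the rest, and c2 and NT overlapped. AGO4 fell by 0.54 ± 0.08 in c1 against NT (adjusted p = 0.00341, edgeR) and was 0.54 ± 0.08 higher in c2 against c1 (adjusted p = 0.00302, edgeR), while c2 against NT stood at −0.00 ± 0.08. Its one coding transcript, AGO4-201, carried 1038.8 and 953.3 estimated reads in c2, 713.0 and 643.4 in c1, and 889.2 and 906.7 in NT. Both calls, in the same order, ended on log2(TPM + 0.5) (limma, adjusted p = 0.312 and 0.155) and with transcript length as an offset (edgeR, adjusted p = 0.244 and 0.137). On these scales a 297-base noncoding transcript, AGO4-203, with 2.7 to 7.0 estimated reads a library, averaged 3.25 TPM, against 4.81 TPM for AGO4-201.

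AGO1 stood at 144 CPM with and 145 without doxycycline in c2, at 121 and 114 in c1, and at 130 and 126 in NT. The clones did not overlap, with c2 highest and c1 lowest. AGO1 was 0.30 ± 0.05 higher in c2 against c1 (adjusted p = 0.00671, edgeR), a call that ended with the uninduced c2 library left out (adjusted p = 0.0732, edgeR), on log2(TPM + 0.5) (limma, adjusted p = 0.225) and with transcript length as an offset (edgeR, adjusted p = 0.138). In c2 against NT it stood at 0.18 ± 0.05 (adjusted p = 0.0544, edgeR) and in c1 against NT at −0.12 ± 0.06 (adjusted p = 0.153, edgeR).

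AGO3 stood at 48.0 CPM with and 49.4 without doxycycline in c2, at 42.7 and 43.3 in c1, and at 47.9 and 48.0 in NT. It shared the low c1 values of its neighbours AGO4 and AGO1, but at 0.18 ± 0.07 in c2 against c1 (adjusted p = 0.11, edgeR) and −0.16 ± 0.07 in c1 against NT (adjusted p = 0.147, edgeR) it did not pass the test. AGO2 stood at 48.3 CPM with and 38.5 without doxycycline in c2, at 44.9 and 40.4 in c1, and at 51.1 and 48.3 in NT. Its values in c2 against NT (−0.20 ± 0.09, adjusted p = 0.141, edgeR) and c1 against NT (−0.22 ± 0.09, adjusted p = 0.0953, edgeR) were not called. AGO2-209, a transcript annotated for nonsense-mediated decay, had 0 estimated reads in c1 without doxycycline and 193.5 to 249.7 in the other 5 libraries.

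TNRC6A, the scaffold downstream of Argonaute (ENSG00000090905, chromosome 16, 24610209 to 24827632, plus strand), stood at 86.7 CPM with and 84.8 without doxycycline in c2, at 85.9 and 97.0 in c1, and at 98.2 and 88.6 in NT. The clones overlapped except c2 against NT, where it stood at −0.12 ± 0.08 (adjusted p = 0.331, edgeR).

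**Figure D3:**
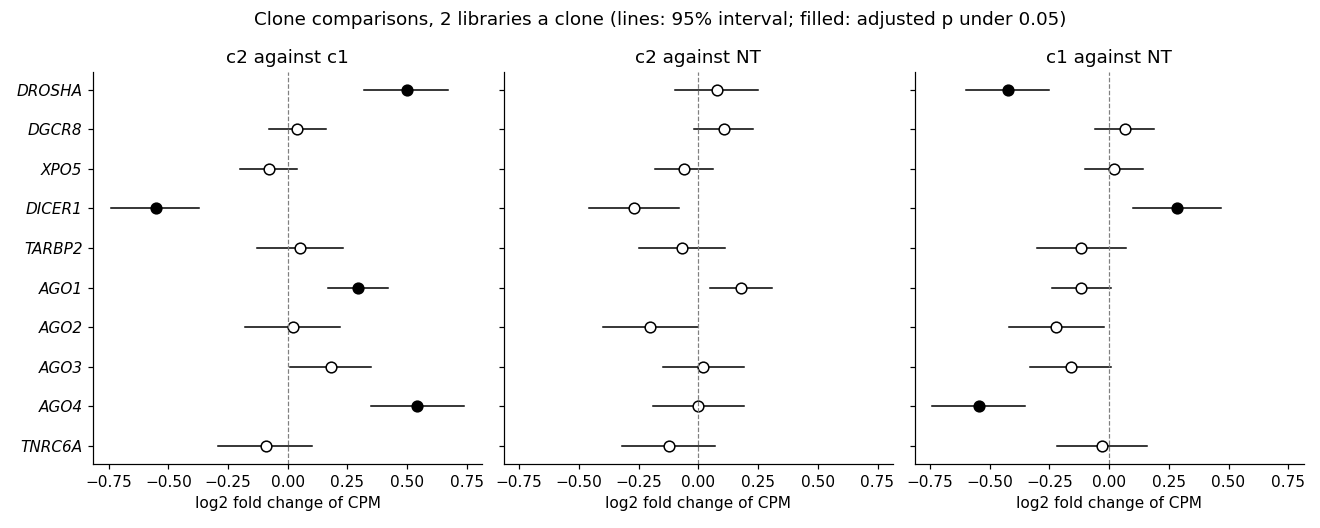
Log2 fold change of CPM between clones (dots) with its 95% interval (lines), 2 libraries a clone, filled where the adjusted p of edgeR's quasi-likelihood test is under 0.05. DROSHA, DICER1, AGO1 and AGO4 are filled in c2 against c1, none in c2 against NT, and DROSHA, DICER1 and AGO4 in c1 against NT.

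Between clones, 4, 0 and 3 of the 10 members passed the test, near the shares of all genes that did, so the counts mark nothing particular to the members. In c2 against c1, 3 of 10 were called higher (DROSHA, AGO4 and AGO1) and 1 lower (DICER1), where 26.8% of the 14075 genes tested were called (14.9% higher and 11.9% lower). In c1 against NT, 1 of 10 was called higher (DICER1) and 2 lower (AGO4 and DROSHA), where 27.8% of all genes were called (13.8% higher and 14.0% lower). In c2 against NT none of 10 was called, where 21.1% of all genes were (edgeR, 3 members at an unadjusted p under 0.05, 0 called by DESeq2 and 1, DICER1, by voom). The members' median log2 fold change was 0.05 in c2 against c1, −0.03 in c2 against NT and −0.12 in c1 against NT, beside −0.01, −0.00 and −0.00 over all genes tested. These 3 comparisons share libraries, so their calls are not independent of each other.

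Doxycycline over the 3 clones changed none of the 10 past the test. In the comparison of 3 libraries with and 3 without doxycycline, 0 of 10 members and 0 of 14075 genes (0%) were called by edgeR, with 0 members and 217 genes at an unadjusted p under 0.05, and with 6 genes called by DESeq2 and 0 by voom. Under the replicate block, with the clone as a term, edgeR called 18 genes (0.128%) and again 0 members. The 10 fold changes lay between −0.10 and 0.18 without the block and between −0.11 and 0.19 with it, with medians of 0.03 and 0.04 beside −0.01 and −0.00 over all genes tested. With the block no 95% interval of a member reached beyond −0.26 or 0.35.

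AGO2 was the member with the smallest p. It averaged 48.1 ± 3.11 CPM with doxycycline and 42.4 ± 5.22 CPM without it (SD, n = 3 each), and was higher with doxycycline in each clone, at 126% of the level without it in c2, 111% in c1 and 106% in NT. The log2 difference was 0.33 in c2 (95% counting interval 0.22 to 0.44), 0.15 in c1 (0.04 to 0.26) and 0.08 in NT (−0.03 to 0.19). With the block it stood at 0.19 ± 0.07 (adjusted p = 0.325, edgeR), and without it at 0.18 ± 0.12 (adjusted p = 1, edgeR). The blocked value was 0.12 without c2, 0.20 without c1 and 0.25 without NT, and the other ranged from 0.12 without the uninduced c2 library to 0.29 without the uninduced NT library. These counting intervals cover the sampling of reads in 1 library against 1 and not the spread between cultures. A shared sign was not particular to AGO2. DGCR8 (0.124 in c2, 0.04 in c1 and 0.005 in NT) and DICER1 (0.195, 0.028 and 0.03) were also higher with doxycycline in each clone. AGO3 was lower in each. The share of all genes tested with the same sign in each clone was not counted.

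**Figure D4:**
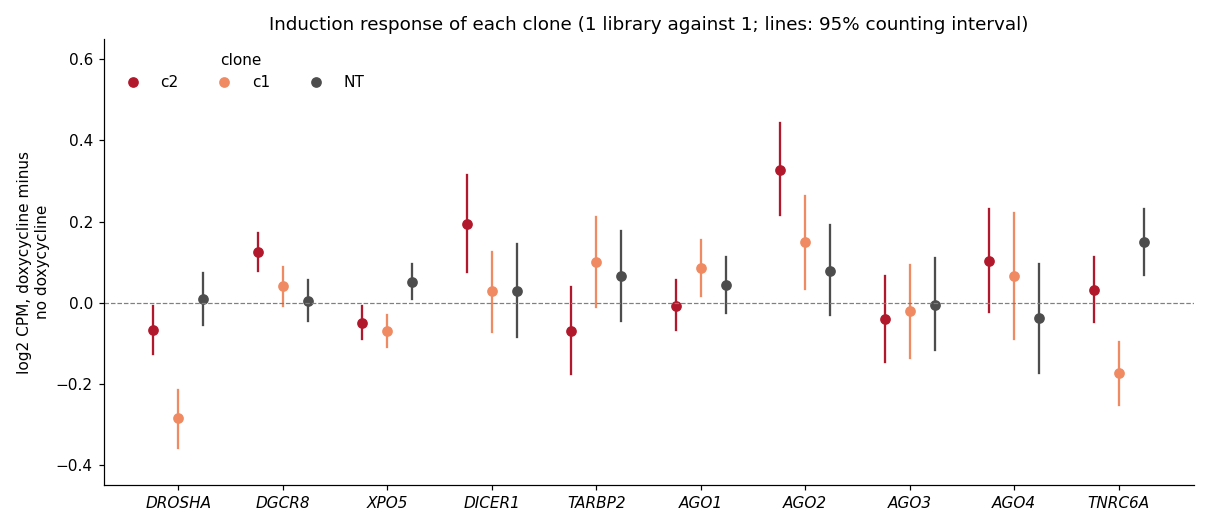
Log2 CPM with doxycycline minus log2 CPM without it for each gene in c2, c1 and NT, 1 library against 1, with 95% counting intervals. AGO2 is positive in each clone, at 0.33, 0.15 and 0.08, as are DGCR8 and DICER1. DROSHA in c1 is the lowest at −0.29, and most other values lie within 0.2 of 0.

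Single clones showed a few wider differences that the others did not share in size. DROSHA with doxycycline was at 95.5% of its level without it in c2, 82.1% in c1 and 101% in NT. For TNRC6A the same ratio was 102% in c2, 88.6% in c1 and 111% in NT, and for DICER1 it was 114% in c2, 102% in c1 and 102% in NT. Beside them the size of the c1 difference for DROSHA (0.29 on the log2 scale) exceeded that of 70.1% of the genes tested in that clone, and of AGO2 in c2 (0.33) that of 81.5%. CDAN1 exceeded 96.0% of them in c2 and 96.6% in c1. The other members differed less on the CPM scale, AGO3 least, with −0.04 in c2, −0.02 in c1 and −0.01 in NT. On log2(TPM + 1), which weighs short transcripts more, AGO2 kept its sign (0.33, 0.16 and 0.17 in c2, c1 and NT), while AGO3 stood at −0.19, −0.48 and 0.08 and AGO4 at 0.50, 0.24 and −0.31.

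Knockdown, the comparison the series was designed for, set the 2 CDAN1 shRNA libraries with doxycycline against the other 4. Here 0 of 10 members and 0 of 14075 genes (0%) were called by edgeR, with 0 members and 322 genes at an unadjusted p under 0.05 (14 genes called by DESeq2 and 0 by voom). Of the 10, DGCR8 alone had both knockdown libraries outside the range of the controls, with 253 ± 10.1 CPM (SD, n = 2) against 235 ± 4.44 CPM (SD, n = 4), a log2 fold change of 0.11 ± 0.06 (adjusted p = 1, edgeR). Of the 14075 genes tested, 9.56% had both knockdown libraries outside that range in one direction. The members lay between −0.19 and 0.11 with a median of −0.05, beside −0.00 over all genes tested, and CDAN1 itself stood at −1.27 ± 0.32. Among the controls CDAN1 was lowest in c1 without doxycycline, at 37.0 CPM, against 55.4 in uninduced c2 and 70.2 and 62.5 in NT. The knockdown libraries had 29.8 CPM in c2 and 17.0 in c1. Over both doxycycline states CDAN1 stood at −1.41 ± 0.27 in c1 against NT (adjusted p = 0.00793, edgeR). The replicate block on the clone gave 6 called genes (0.0426%), CDAN1 among them and no member.

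Under that block AGO2 stood at 0.24 ± 0.08 (adjusted p = 0.36, edgeR), against 0.06 ± 0.14 without it (adjusted p = 1, edgeR). DROSHA stood at −0.17 ± 0.07 (adjusted p = 0.386, edgeR), against −0.19 ± 0.19 without it (adjusted p = 1, edgeR). The DROSHA value without the block turned to 0.08 when c1 with doxycycline was left out. The block compares the CDAN1 shRNA clones with themselves and does not take off an effect of doxycycline. With doxycycline as a further term, AGO2 stood at 0.16 ± 0.15 and DROSHA at −0.18 ± 0.13, and neither was called (edgeR).

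The difference between the response of the CDAN1 shRNA clones and that of NT passed the test for no member. edgeR called 0 of 10 members and 0 of 14075 genes (0%), with 0 members and 79 genes at an unadjusted p under 0.05 (5 genes by DESeq2), and with the block 19 genes (0.135%) and 0 members. The members lay between −0.22 and 0.16 in both fits, and their 95% intervals reached −1.37 and 1.45 without the block and −0.52 and 0.50 with it, so smaller differences than these could be missed for some members.

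Summed over the 10 members the level was 367 TPM with and 363 without doxycycline in c2, 325 and 345 in c1, and 368 and 344 in NT. On coding transcripts alone the sums were 245 with and 249 without doxycycline in c2, 219 and 228 in c1, and 241 and 226 in NT. The order of the states in c2 thus depended on which transcripts were counted. In both sums the lower values were those of c1 and of NT without doxycycline.

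Around the core members, 96 further genes of the pathway were taken by role, of which 94 were tested. In c2 against c1, 9 were called higher and 10 lower (20.2%, against 26.8% of all genes). In c2 against NT, 6 were higher and 4 lower (10.6%, against 21.1%), and in c1 against NT, 17 were higher and 6 lower (24.5%, against 27.8%). None was called in the knockdown, doxycycline or response comparisons, with or without the block. Without the block the genes of smallest p were ILF2 (−0.15 ± 0.06) and WTIP (−1.14 ± 0.50) for knockdown, TSNAX, a subunit of the C3PO nuclease (−0.26 ± 0.07), and the deadenylase CNOT6L (−1.18 ± 0.40) for doxycycline, and the helicase DDX6 (−0.77 ± 0.27) and the chaperone HSPA8 (−0.38 ± 0.17) for the response. WTIP had only 8 to 28 estimated reads a library. CNOT6L stood at 11.5 CPM with and 30.6 without doxycycline in c2, at 12.9 and 11.5 in c1, and at 9.64 and 35.0 in NT, so that c1 did not share the lower value with doxycycline. With the block the smallest p belonged to DDX5 (−0.52 ± 0.08, adjusted p = 0.105, edgeR) and the poly(A) polymerase TENT2 (−0.25 ± 0.06, adjusted p = 0.247) for knockdown, to DDX5 (−0.43 ± 0.06, adjusted p = 0.0659, edgeR) and LIN28A (−0.43 ± 0.08, adjusted p = 0.125) for doxycycline, and to DDX6 (−0.77 ± 0.17, adjusted p = 0.285, edgeR) and HSPA8 (−0.37 ± 0.10, adjusted p = 0.527) for the response.

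LIN28A had the smallest p of these lists in each of the 3 clone comparisons. It encodes an RNA-binding protein of stem cells that holds back let-7 microRNAs by binding their hairpins and recruiting enzymes that add a uridine tail. LIN28A stood at 93.0 CPM with and 128 without doxycycline in c2 and at 54.1 and 67.8 in c1, against 0.713 and 1.36 in NT (19 and 36 estimated reads). It was 6.74 ± 0.14 higher on the log2 scale in c2 against NT (adjusted p = 5.62e-07, edgeR), 5.89 ± 0.14 higher in c1 against NT (adjusted p = 3.38e-06) and 0.85 ± 0.09 higher in c2 against c1 (adjusted p = 0.000464). Both CDAN1 shRNA clones thus carried LIN28A mRNA before induction that the NT clone nearly lacked. Its paralog LIN28B stood at 137 and 142 CPM in c2, 160 and 169 in c1 and 119 and 132 in NT, and was 0.39 ± 0.06 higher in c1 against NT (adjusted p = 0.00252, edgeR). In c2 against c1 LIN28B stood at −0.235 ± 0.055 (adjusted p = 0.0179, edgeR).

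The let-7 family that LIN28 proteins act on shares 1 seed, shown in capitals (bases 2 to 8) in 4 mature members from RefSeq (GRCh38.p14). The let-7g hairpin is printed whole, with capitals for GGAG, the letters in its terminal loop region to which the zinc knuckles of LIN28 are known to bind, found 1 time by a search of the given strand. Levels of let-7 were not measured here.
let-7a-5p: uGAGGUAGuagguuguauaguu
let-7g-5p: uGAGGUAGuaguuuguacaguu
let-7i-5p: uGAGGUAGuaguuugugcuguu
miR-98-5p: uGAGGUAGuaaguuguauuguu
let-7g hairpin (chr3:52268278-52268361, minus strand): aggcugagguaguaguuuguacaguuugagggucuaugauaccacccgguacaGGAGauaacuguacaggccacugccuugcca

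Other called genes of these lists are given by role. Among nuclear export and import partners, RCC1, which loads Ran with GTP for exportin-5 and other receptors, fell by 0.49 ± 0.06 in c1 against NT and was 0.36 ± 0.06 higher in c2 against c1, and IPO8, an importin that binds Argonaute, was 0.39 ± 0.07 higher in c1 against NT. Of the 7 genes of that list 3 were higher and 1 lower in c1 against NT and none passed the test in c2 against NT, beside 13.8% of all genes higher and 14.0% lower in c1 against NT and 21.1% called in c2 against NT. In c2 against c1, 1 was higher and 1 lower, beside 14.9% and 11.9% of all genes. This short list had the highest share called in c1 against NT (57.1%). The other lists had 9.09% to 38.5%, and all lists together 24.5%. Among Microprocessor cofactors DDX5, a helicase, stood at 203 CPM with and 280 without doxycycline in c2, 295 and 441 in c1 and 315 and 373 in NT, lower with doxycycline in each clone but not called for it. It fell by 0.53 ± 0.08 in c2 against NT and by 0.60 ± 0.08 in c2 against c1. SRSF3, a splicing factor that marks primary hairpins, was 0.29 ± 0.05 higher in c1 against NT.

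Among genes that load or modify Argonaute, P4HB, the subunit of the prolyl hydroxylase that acts on AGO2, fell by 0.50 ± 0.05 in c2 against NT and by 0.42 ± 0.05 in c2 against c1. FKBP5, an HSP90 co-chaperone, fell by 0.43 ± 0.06 in c2 against c1. Downstream, PABPC4, a poly(A)-binding protein, fell by 0.38 ± 0.05 in c1 against NT and was 0.38 ± 0.05 higher in c2 against c1, and CNOT4, a ubiquitin ligase of the CCR4-NOT complex, was 0.40 ± 0.09 higher in c2 against NT. SND1, a nuclease that degrades small RNAs, was 0.34 ± 0.06 higher in c2 against NT. All of these passed edgeR's test. Some passed it in further comparisons. In c2 against c1 these were IPO8 (−0.28 ± 0.07), SRSF3 (−0.16 ± 0.05) and SND1 (0.37 ± 0.06). In c1 against NT they were CNOT4 (0.34 ± 0.09) and FKBP5 (0.21 ± 0.06), and FKBP5 was lower in c2 against NT (−0.22 ± 0.06).

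Genes whose pattern was most like that of a called member were sought by Pearson's r of log2 CPM over the 6 libraries among 9093 tested genes of at least 10 CPM. Nearest to DICER1 were PARP9 (r = 0.9984), CARHSP1 (0.9951) and FKBP5 (0.9935), to DROSHA SUB1 (0.9946), STRIP2 (0.9921) and WDR55 (0.9921), and to AGO4 MAN2A2 (0.9971), FAM193A (0.9940) and DENND4B (0.9938). The 6 libraries come from 3 clones that differ in 21.1% to 27.8% of the genes tested, and 112 genes had an r above 0.95 with DICER1, 134 with DROSHA and 219 with AGO4, so these values describe a shared order of clones.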

How the data were processed

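The authors ran Salmon 1.5.2 on GRCh37, per the submitters' processing notes. For each transcript the deposited files hold an estimated count of reads (expected count) and a TPM value, per the file headers. The sources used here do not give the annotation, trimming or strand. Of 167268 transcripts, 151039 (90.3%) matched GENCODE 29, which lies on GRCh38 and served for names, and their counts were summed per gene and rounded. Unmatched transcripts held 6.23% to 6.5% of the reads and were left out. The filter filterByExpr with a smallest group of 2 kept 14075 of 21165 genes with a count. Log2 CPM used a prior count of 2.

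Tests were edgeR 4.0.16 quasi-likelihood tests (R 4.3.3, two-sided, Benjamini-Hochberg over all genes tested, threshold 0.05). Called means past that threshold, SE is the log2 fold change over the root of F, and 95% intervals use the t distribution with the test's degrees of freedom. Clone comparisons came from 1 model with clone and doxycycline over all 6 libraries, so the clones share 1 spread. DESeq2 1.42.0 and limma 3.58.1 were alternatives, as were other scalings, filters, transcript length and leaving out libraries. The tests were tested on simulated data. The clone pairs the libraries, since each gave 1 with and 1 without doxycycline. Deviations of its libraries correlated across genes (r = 0.741 in c2, 0.679 in c1 and 0.608 in NT), so blocked values stand beside the others. The members and lists were chosen with earlier results of these data known. Further pathway genes were named by a rule, at most 6 called genes per comparison by smallest p, or otherwise the 2 of smallest p, and 1 gene so chosen is not reported here.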

Additional observations from a re-analysis of the deposited data

Results flagged for a closer look

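AGO4 in the 4 control libraries had 1 value apart from the rest. c1 without doxycycline stood at 22.9 CPM, against 32.9 CPM in c2 without doxycycline and 33.7 and 34.6 CPM in NT, so that its gap to the nearest was 0.855 of the range. Chance flags about 1 in 20 groups of this size where the values are independent, and 10 members were looked at. The NT libraries come from the same clone, so these values are not independent and that rate need not apply. c1 with doxycycline, which is outside this group, stood at 23.9 CPM.

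For 3 members the induction response of both CDAN1 shRNA clones had the opposite sign to that of NT. The share of all genes tested with this pattern of signs was not counted, so the members were not set against it. The mean of c2 and c1 minus NT was −0.184 for DROSHA (−0.07 in c2, −0.29 in c1 and 0.01 in NT), −0.111 for XPO5 (−0.05, −0.07 and 0.05) and 0.122 for AGO4 (0.10, 0.07 and −0.04). The test of each difference gave an adjusted p of 1 (edgeR). Every counting interval of AGO4 covered both signs (−0.024 to 0.231 in c2, −0.09 to 0.22 in c1 and −0.172 to 0.096 in NT). That of DROSHA did so in NT (−0.056 to 0.073) but not in c2 or c1. No counting interval of XPO5 covered both signs. The spread between cultures is not part of these intervals. On log2(TPM + 1) the DROSHA response in c2 was 0.02, so there the opposite signs did not hold for it.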

How the results depend on the processing

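No member was called in knockdown (19 fits), doxycycline (21 fits) or the response against NT (16 fits), where the smallest adjusted p was 0.327 for AGO2 (voom with the block), 0.246 for AGO2 (edgeR with the block, without NT) and 0.999. With the clone as a replicate block edgeR called 6 genes for knockdown, 18 for doxycycline and 19 for the response, DESeq2 115, 145 and 8 and voom 16, 27 and 9. Knockdown with the block and doxycycline is the same model as the response with the block. Its 19 genes are therefore the same result, and that fit is counted under both comparisons. Doxycycline with the block gave 3 without c1, 53 without c2 and 138 without NT. Unblocked, DESeq2 called 14, 6 and 5 genes, and limma on log2(TPM + 0.5) called 1 for doxycycline. All blocked DESeq2 and voom fits, and those without a clone, were added after the data were seen. The response could not be fitted without either NT library.

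Of the 7 called member differences between clones, none changed sign in 105 settings, and DROSHA in c2 against c1 was called in all 15 of its own. On log2(TPM + 0.5), with transcript length as an offset and with unmatched transcripts kept, the counts of genes called were 2118, 2312 and 1825 for c2 against c1, 1549, 1793 and 1164 for c2 against NT, and 1853, 2369 and 2021 for c1 against NT. Called members were 1 and 2 for c2 against c1 and 0 and 1 for c1 against NT under the first and second of these. In c2 against NT, 1 member was called with DESeq2 size factors, with library totals alone, without the filter and by voom (AGO1 in the first 2 and DICER1 in the others). The split of genes higher and lower in c2 against c1, 2095 and 1671, was 1574 and 544 on log2(TPM + 0.5), and that in c2 against NT, 1667 and 1297, was 1045 and 504. The cause was not tested.

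Leaving out 1 library gave 1973 to 3953 genes and 3 to 4 members for c2 against c1, 1421 to 3496 and 0 to 1 for c2 against NT, and 2224 to 3654 and 2 to 3 for c1 against NT. The value for knockdown ranged from −0.53 to 0.08 for DROSHA and from 0.01 to 0.14 for AGO2. Member fold changes with no unadjusted p under 0.05, 45 in all and none called, changed sign 84 times in 744 settings, over 33 of them. In c2 against NT, DROSHA and TNRC6A changed sign in 1 of 15 settings each and AGO4, at −0.00, in 8, while DGCR8 kept its sign there, in c1 against NT and for knockdown. Each clone and state had 1 culture, and the fewest reads in a library were 28318555.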
